A study of Mus musculus with 8 samples.

Results

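The 10 genes described here encode adhesion and junction proteins that hold a myelinating Schwann cell to its axon and to itself: Mag, Cadm1, Cadm3, Cadm4, Nfasc, Nrcam, Gldn, Cdh1, Cldn19 and Gjb1. They were chosen by name for their place in the internode, node, paranode and Schmidt-Lanterman clefts, and all 10 were found among the 55487 genes of the count table. RNA carrying a poly(A) tail was sequenced from sciatic nerves of mice aged 6 postnatal days, when myelin is being laid down. In the 4 CNP-Cdk7cKO libraries (genotype CNPcre/+ Cdk7lox/lox) 1 Cnp allele carried Cre recombinase and both Cdk7 alleles were floxed. The 4 Ctrl libraries (CNP+/+ Cdk7lox/lox) had the same floxed alleles and no Cre, so floxed Cdk7 is shared by all 8 and Cre is not. Cre is expressed where Cnp is, which in the nerve is chiefly the Schwann cell, while the whole nerve also holds fibroblasts, perineurial cells, vessels and macrophages. Whether the 8 libraries are 8 animals is not stated, and p-values speak only of the spread from library to library.

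A myelinating Schwann cell makes contact with its axon along the internode through cell adhesion molecules of the immunoglobulin superfamily, of which CADM4 on the glial side and CADM3 on the axonal side form a binding pair, and MAG is a sialic acid-binding lectin of the same membrane. At the paranode the glial isoform of neurofascin (Nfasc) binds the axonal contactin and Caspr complex, and at the node gliomedin (Gldn) and NrCAM, shed from or carried by Schwann cell microvilli, gather axonal sodium channels. Within the Schwann cell's own folds, at paranodal loops, clefts and mesaxons, E-cadherin (Cdh1) builds adherens junctions, claudin-19 (Cldn19) builds tight junctions, and connexin 32 (Gjb1) builds gap junctions that shorten the path across the sheath. Mutations of GJB1 cause the X-linked form of Charcot-Marie-Tooth neuropathy in humans.

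Promoter sequences of 3 of these genes are shown because Cldn19 is the member with the smallest p, while Cadm4 and Gjb1, which did not pass the test, carry matches to the same letters. Each is the 250 bases before a RefSeq transcript start (GRCm38.p6), written 5′ to 3′ on the gene's strand, with matches on either strand in capitals: ACAAAG or ACAATG for the SOX family, GTGGGCG for the EGR family and GGAATG for the TEAD family. All 3 families have members that regulate myelin genes in Schwann cells.
Cldn19 (chr4:119255191-119255440, plus strand): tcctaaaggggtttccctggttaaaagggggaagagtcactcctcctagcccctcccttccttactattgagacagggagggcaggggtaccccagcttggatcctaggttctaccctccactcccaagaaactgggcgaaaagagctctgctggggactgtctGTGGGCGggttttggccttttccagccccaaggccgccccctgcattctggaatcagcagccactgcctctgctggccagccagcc
Cadm4 (chr7:24481773-24482022, plus strand): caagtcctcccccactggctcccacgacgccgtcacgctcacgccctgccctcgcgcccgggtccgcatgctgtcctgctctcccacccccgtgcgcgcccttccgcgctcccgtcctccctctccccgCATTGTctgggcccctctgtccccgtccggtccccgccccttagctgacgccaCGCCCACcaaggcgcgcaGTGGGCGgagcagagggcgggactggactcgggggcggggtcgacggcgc
Gjb1 (chrX:101383482-101383731, plus strand): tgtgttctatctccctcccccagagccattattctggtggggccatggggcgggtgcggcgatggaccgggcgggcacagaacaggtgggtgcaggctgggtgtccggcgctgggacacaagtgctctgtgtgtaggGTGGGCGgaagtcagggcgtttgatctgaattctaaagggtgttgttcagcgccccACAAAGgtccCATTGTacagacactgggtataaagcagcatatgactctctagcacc

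The EGR letters lay 86 to 80 bases before the start of Cldn19 and 113 to 107 bases before this start of Gjb1, and 2 matches lay within 68 bases of the start of Cadm4. The Gjb1 window also held 2 SOX matches on opposite strands 57 to 42 bases before the start, and the Cadm4 window held 1 SOX match. Of 32851 promoters of the same length, 7.02% held the EGR letters, 25.2% either SOX word and 12.6% the TEAD letters. A match is a run of letters, not a measured binding site. Promoters were matched for 8 of the 10 members, with 15 starts among them; Cadm1 and Cdh1 were not matched, so Cldn19 is the single gene that fell whose promoter was searched. Of the windows not printed, the second Cldn19 start held the same EGR match and Cadm3 had a TEAD match. Mag had 1 SOX match, shared by the windows of 2 starts, and a TEAD match at another start. Gjb1 had a SOX match at 1 further start, a TEAD match at another and no match at the start at 101382118. Outside the printed window, Gjb1 had no EGR match at any start. The windows of Nfasc, Nrcam and Gldn held none of these letters. The last 27 bases of the printed Cldn19 window are exonic in GENCODE, whose start for this gene is upstream of the RefSeq start.

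Depth and identity checks bear on all that follows. Libraries held 16897231 to 21527886 estimated counts, and the members' own counts lay between 695 (Cadm1) and 46716 (Cldn19) in a library. Expression is given as CPM, the gene's count relative to its library's total, scaled between libraries by trimmed mean of M values (TMM), and 15056 genes had enough counts to be tested; fold changes are CNP-Cdk7cKO over Ctrl. The floxed gene, Cdk7 (GRCm38, as for all genes here, chromosome 13, 100702631 to 100730939), measured 9.62, 11.8, 12.7 and 12.1 CPM in CNP-Cdk7cKO 1 to 4, against 21.7, 22.2, 21.4 and 20.6 CPM in Ctrl 1 to 4. Cnp, whose locus carries Cre in the knockout, averaged 1389 ± 61.6 CPM in CNP-Cdk7cKO and 3134 ± 137 CPM in Ctrl (SD, n = 4 each). By Xist and 4 Y-linked genes, all CNP-Cdk7cKO libraries and Ctrl 1 were female and Ctrl 2 to 4 male, so sex and genotype are partly confounded. Of 20 skeletal muscle markers 19 were called lower, and they summed to 117.3 to 648.3 CPM in CNP-Cdk7cKO and 607.5 to 5843.9 CPM in Ctrl, with most in Ctrl 4; their part in the results below was not tested beyond a fit with them as a covariate. Of 5 pan-Schwann markers 3 were called lower, and they summed to 2007 to 2184 CPM in CNP-Cdk7cKO and 2613 to 2904 CPM in Ctrl. Of 8 macrophage markers 2 were called higher, Csf1r at a log2 fold change of 0.23 and Cx3cr1 at 0.42, and 0 lower. Another 2 had negative changes and did not pass, Cd163 at -0.65 and Mrc1 at -0.024. The macrophage list summed to 347.7 to 429.5 CPM in CNP-Cdk7cKO and 294.8 to 392.2 CPM in Ctrl. Its part in the results was not tested. In RNA from whole nerve, fewer Schwann cells and less RNA per Schwann cell cannot be told apart.

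Of the 10 genes, 3 fell in CNP-Cdk7cKO nerves and 0 rose: the tight junction gene Cldn19, the adherens junction gene Cdh1 and the internodal adhesion gene Cadm1. Expression decreased by 31.8% for Cadm1, decreased by 23.8% for Cldn19 and decreased by 21.0% for Cdh1. Calls are from edgeR's quasi-likelihood F test at an adjusted p under 0.05, with p-values adjusted by Benjamini-Hochberg across the 15056 genes. In the same fit 6.60% of all tested genes were called lower, 5.07% higher and 11.7% in either direction. At an unadjusted p under 0.05, edgeR gave 1 member higher (Cadm4) and 5 lower, against 1919 higher and 2015 lower of the 15056 genes. By the same threshold DESeq2 gave 1 member higher and 5 lower, and limma-voom 3 higher and 5 lower. After adjustment DESeq2 and limma-voom also called 0 members higher. Relative to Schwann cell transcripts rather than the whole library, 5 members were called higher and 2 lower, as described with the alternatives. The median log2 fold change of the 10 genes was -0.10, against 0.0031 over all genes tested, with a range of -0.55 to 0.15. Groups did not overlap for 4 members, all with CNP-Cdk7cKO lower (Cldn19, Cdh1, Cadm1 and Nfasc), against 9.51% of all genes in that direction, 9.34% in the other and 18.8% in either.

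**Figure D1:**
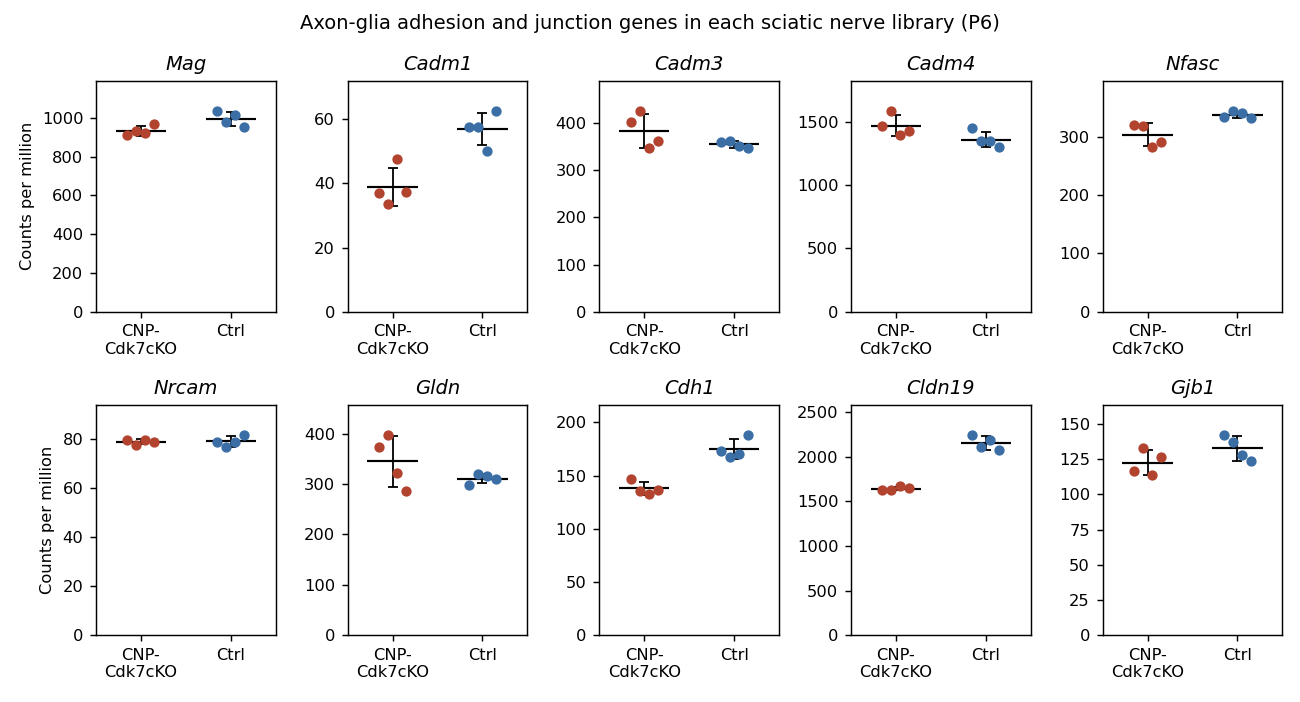
Expression of each of the 10 genes in CPM (y axes start at 0), with 1 point per library, CNP-Cdk7cKO in red and Ctrl in blue, and bars for the mean ± SD (n = 4 each). Points of the 2 groups are fully separate for Cldn19, Cdh1, Cadm1 and Nfasc, and Gldn and Cadm3 are more spread in CNP-Cdk7cKO than in Ctrl.

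Among the internodal adhesion molecules, Cadm1 fell while Cadm4, Cadm3 and Mag did not pass the test. Cadm1 (chromosome 9, 47530173 to 47857637), an adhesion molecule of many epithelia and neurons as well as of Schwann cells, measured 37.0, 33.6, 47.5 and 37.3 CPM in CNP-Cdk7cKO 1 to 4, against 57.6, 57.5, 50.2 and 62.6 CPM in Ctrl 1 to 4. The highest knockout library, CNP-Cdk7cKO 3, lay just under the lowest control library, Ctrl 3. The log2 fold change was -0.55 ± 0.10 (SE; edgeR quasi-likelihood adjusted p = 0.00616). Cadm4 (chromosome 7, 24482023 to 24504539), the glial partner of axonal CADM3, measured 1470.2, 1585, 1398 and 1429.9 CPM in CNP-Cdk7cKO 1 to 4, against 1449, 1345, 1351 and 1299 CPM in Ctrl 1 to 4. Its groups overlapped only through Ctrl 1, and the log2 fold change of 0.11 ± 0.05 missed the threshold (95% interval 0.01 to 0.22; adjusted p = 0.17 by edgeR's quasi-likelihood test).

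Cadm3 (chromosome 1, 173333258 to 173367695), best known as the axonal member of the pair, measured 401, 425, 346 and 363 CPM in CNP-Cdk7cKO 1 to 4, against 359.5, 362, 352 and 346 CPM in Ctrl 1 to 4. CNP-Cdk7cKO 1 and 2 stood well above every control library, CNP-Cdk7cKO 4 just above the highest and CNP-Cdk7cKO 3 just below the lowest. The difference of 0.11 on the log2 scale missed the threshold (95% interval -0.02 to 0.25; adjusted p = 0.273 by edgeR's quasi-likelihood test). The annotation places Ackr1, a chemokine receptor gene, on the same strand with coordinates that overlap those of Cadm3. Ackr1 had 34.3 to 44.4 CPM in CNP-Cdk7cKO and 31.2 to 35.5 CPM in Ctrl, and reads in shared sequence could be assigned to either gene. On the other strand lies Aim2, which had 53 counts or fewer in every library. Neuron markers, 12 genes of which 9 were tested, summed to 76.0 to 85.3 CPM in CNP-Cdk7cKO and 73.5 to 88.0 CPM in Ctrl, with 1 called higher and 1 lower.

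Mag (chromosome 7, 30899176 to 30914873) measured 909.8, 933, 920.4 and 967 CPM in CNP-Cdk7cKO 1 to 4, against 1035, 977, 1017 and 954 CPM in Ctrl 1 to 4. CNP-Cdk7cKO 4 was above Ctrl 4, and otherwise the knockout libraries were the lower ones. The difference was -0.09 ± 0.04 on the log2 scale, with a 95% interval of -0.18 to -0.01, and missed the threshold after adjustment (adjusted p = 0.15 by edgeR's quasi-likelihood test).

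At the paranode and node, Nfasc, Gldn and Nrcam did not pass the edgeR test. Nfasc (chromosome 1, 132564690 to 132741797) measured 321, 319, 282 and 290.0 CPM in CNP-Cdk7cKO 1 to 4, against 333, 344, 340.4 and 332 CPM in Ctrl 1 to 4. Every knockout library was below every control library, and the control libraries varied little (a coefficient of variation of 6.47% in CNP-Cdk7cKO and 1.67% in Ctrl). The log2 fold change of -0.16 ± 0.05 missed the threshold in edgeR's quasi-likelihood test (adjusted p = 0.0672) and passed in DESeq2 (adjusted p = 0.0257), so that DESeq2 called 4 members lower. Gene-level counts sum the glial paranodal isoform and the neuronal nodal isoform, so they do not say which one varied.

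Gldn (chromosome 9, 54286486 to 54341786), the nodal ligand secreted by Schwann cells, measured 373, 397, 323 and 286 CPM in CNP-Cdk7cKO 1 to 4, against 298, 319.8, 316 and 309.5 CPM in Ctrl 1 to 4. CNP-Cdk7cKO 1 to 3 were above every control library and CNP-Cdk7cKO 4 was below every one, with a coefficient of variation of 14.5% in CNP-Cdk7cKO and 3.10% in Ctrl, where the median over all genes was 8.89% in CNP-Cdk7cKO and 7.57% in Ctrl. The difference of 0.15 ± 0.09 on the log2 scale missed the threshold (95% interval -0.04 to 0.34; adjusted p = 0.312 by edgeR's quasi-likelihood test). Nrcam (chromosome 12, 44328885 to 44601964), its nodal partner, measured 79.6, 77.3, 79.6 and 78.8 CPM in CNP-Cdk7cKO 1 to 4, against 78.9, 76.6, 78.7 and 81.7 CPM in Ctrl 1 to 4. The groups overlapped throughout, and the 95% interval of its log2 fold change ran from -0.09 to 0.09 (adjusted p = 0.981 by edgeR's quasi-likelihood test).

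Among the junctions of the Schwann cell with itself, the tight junction and adherens junction genes fell and the gap junction gene did not pass. Cldn19 (chromosome 4, 119255414 to 119262438) measured 1629, 1629, 1669 and 1646 CPM in CNP-Cdk7cKO 1 to 4, against 2246, 2108, 2192 and 2081 CPM in Ctrl 1 to 4. All knockout libraries lay under the lowest control library, with a coefficient of variation of 1.14% in CNP-Cdk7cKO and 3.53% in Ctrl. The log2 fold change was -0.39 ± 0.04 (edgeR quasi-likelihood adjusted p = 0.000105).

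Cdh1 (chromosome 8, 106603351 to 106670246) measured 147, 136, 133 and 137 CPM in CNP-Cdk7cKO 1 to 4, against 173, 168, 169.8 and 188 CPM in Ctrl 1 to 4. The groups did not overlap, and the log2 fold change was -0.34 ± 0.05 (edgeR quasi-likelihood adjusted p = 0.0023). E-cadherin is also the cadherin of epithelia, so 8 epithelial markers were summed: they reached 6.1 to 8.5 CPM in CNP-Cdk7cKO and 5.8 to 7.9 CPM in Ctrl, most of it Krt19, with Krt14 and Cldn7 under 0.1 CPM in every library. Gjb1 (X chromosome, 101376378 to 101385629) measured 116, 133, 114 and 127 CPM in CNP-Cdk7cKO 1 to 4, against 142, 137, 128 and 123 CPM in Ctrl 1 to 4. The groups overlapped, and the difference of -0.11 ± 0.06 on the log2 scale missed the threshold (95% interval -0.25 to 0.03; adjusted p = 0.287 by edgeR's quasi-likelihood test). Gjb1 is X-linked, and the female control library, Ctrl 1, had the highest value of the controls. Ctrl 1 was also the highest control for Mag, Cadm4 and Cldn19, which are not X-linked. The knockout libraries, female as well, were at 114 to 133 CPM of Gjb1, against 142 CPM in Ctrl 1.

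**Figure D2:**
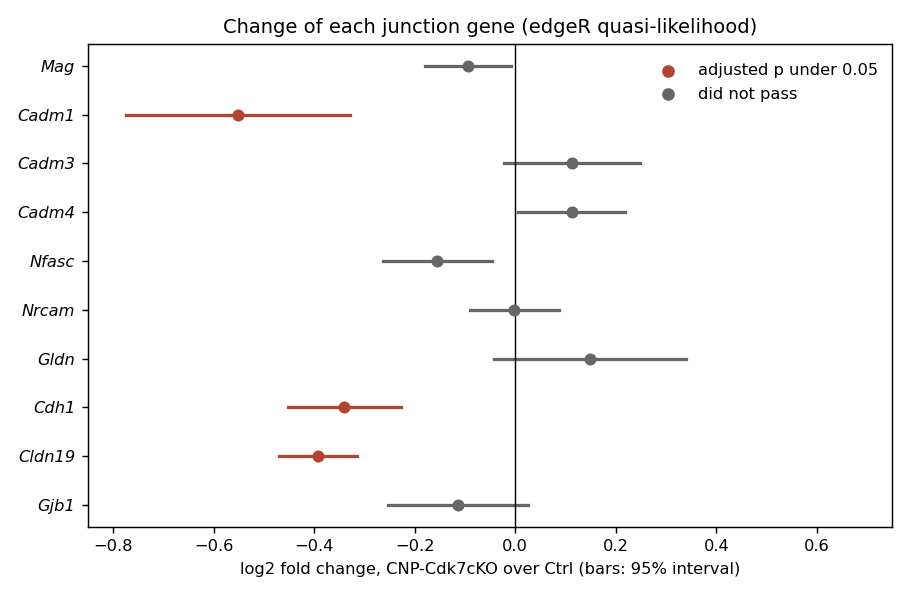
Log2 fold change of each gene, CNP-Cdk7cKO over Ctrl (x axis), with its 95% interval from the edgeR quasi-likelihood fit; red marks an adjusted p under 0.05. Intervals of Cldn19, Cdh1 and Cadm1 lie well below 0, while that of Nrcam is centred on 0 and those of Cadm3, Gldn and Gjb1 cross it.

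Levels of different genes were set side by side as CPM per kilobase of annotated exon. In both groups the order began with Cadm4 (681 ± 37.9 in CNP-Cdk7cKO and 629.8 ± 29.1 in Ctrl), Cldn19 (385 ± 4.39 in CNP-Cdk7cKO and 506 ± 17.9 in Ctrl) and Mag (229 in CNP-Cdk7cKO and 245 in Ctrl; SD, n = 4 each). Gjb1, Gldn and Cadm3 followed, at 71.8, 74.0 and 52.9 in CNP-Cdk7cKO and 77.7, 66.7 and 49.0 in Ctrl. Gldn and Gjb1 therefore changed places between the groups, and in CNP-Cdk7cKO their ranges overlapped (61.4 to 85.3 for Gldn and 66.7 to 77.8 for Gjb1). Cdh1 (30.2 in CNP-Cdk7cKO and 38.2 in Ctrl) and Nfasc (21.4 in CNP-Cdk7cKO and 23.8 in Ctrl) came next. Nrcam (5.90 in CNP-Cdk7cKO and 5.91 in Ctrl) and Cadm1 (3.72 in CNP-Cdk7cKO and 5.46 in Ctrl) were lowest, and their ranges overlapped in Ctrl and not in CNP-Cdk7cKO. The ranges of all other neighbours in the Ctrl order were separate. Exon lengths are the union over all annotated transcripts, so a gene with long unused exons is understated.

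Knockout libraries differed among themselves in some of the genes that did not pass. CNP-Cdk7cKO 1 and 2 were the 2 highest of their group for Gldn, Cadm3, Cadm4 and Nfasc, but not for Mag, Gjb1 or Nrcam, and Cldn19 was even over all 4 libraries. Gldn stood 0.26 and 0.35 above the Ctrl mean on the log2 scale in CNP-Cdk7cKO 1 and 2, and at 0.05 and -0.12 in CNP-Cdk7cKO 3 and 4. Cadm1 lay nearest to the Ctrl mean in CNP-Cdk7cKO 3, at -0.26, against -0.62, -0.76 and -0.61 in CNP-Cdk7cKO 1, 2 and 4. CNP-Cdk7cKO 1 and 2 also had the most muscle transcripts of their group, 301.3 and 648.3 CPM against 117.3 and 212.3 CPM in CNP-Cdk7cKO 3 and 4. With a term for muscle markers the log2 fold change of Gldn was 0.32, against 0.15 without it. Cadm3 was at 0.21 against 0.11, Cadm4 at 0.11 in both fits, and Nfasc at -0.08 against -0.16. These genes did not pass in either fit. Beyond this the part of muscle transcripts in their values was not tested.

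**Figure D3:**
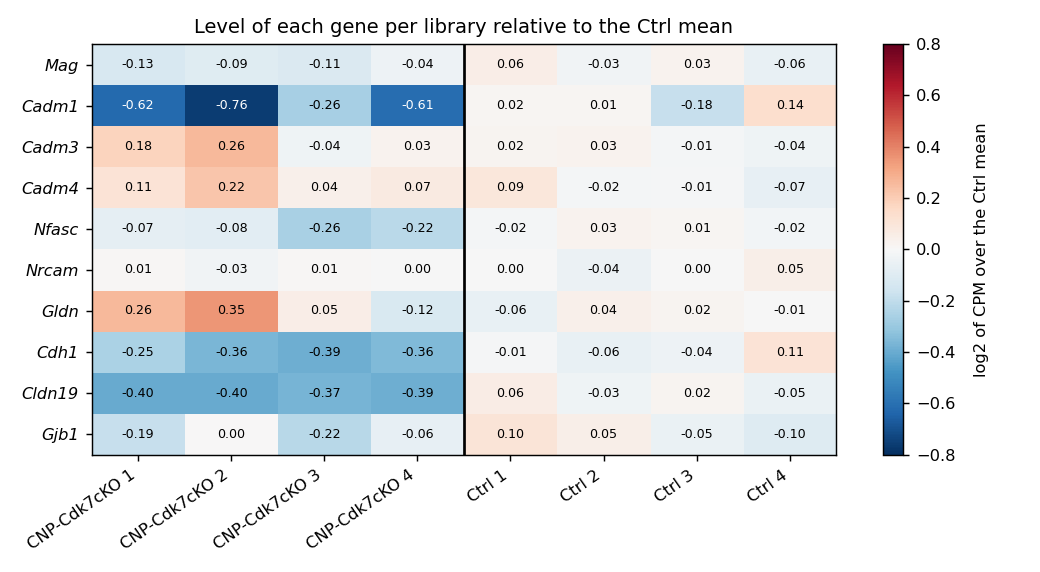
Log2 of each gene's CPM over its mean in the 4 Ctrl libraries (colour and printed value), genes down the page and libraries across, CNP-Cdk7cKO left of the line. Cldn19 is between -0.37 and -0.40 in all 4 knockout libraries, while Gldn runs from -0.12 to 0.35.

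Ratios within a library, which need no scaling, were used to ask whether neighbouring junction genes changed unequally. Counts of Cadm1 relative to Cadm4 had a log2 ratio of -5.25 ± 0.28 in CNP-Cdk7cKO and -4.58 ± 0.16 in Ctrl (SD, n = 4 each; two-sided exact permutation p = 0.0286, the minimum for this design). Gjb1 relative to Gjc3, the gene of connexin 29, another connexin of myelinating Schwann cells, had a log2 ratio of -2.86 ± 0.21 in CNP-Cdk7cKO and -3.25 ± 0.15 in Ctrl (two-sided exact permutation p = 0.0286). Groups did not overlap for either ratio, but adjusted over the 6 ratios compared, both had an exact permutation p of 0.0857 and did not pass. Nfasc relative to Nrcam differed by -0.16 (exact permutation p = 0.0571, adjusted 0.114) and Gldn relative to Nrcam by 0.14 (exact permutation p = 0.314, adjusted 0.471). Cldn19 relative to Cdh1 differed by -0.05 (exact permutation p = 0.486, adjusted 0.583). Cadm3 relative to Cadm4 differed by -0.0032 (exact permutation p = 0.914, also after adjustment), at -1.94 ± 0.07 in CNP-Cdk7cKO and -1.94 ± 0.05 in Ctrl.

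Partner genes were taken from 6 lists by role, 86 genes in all, of which 79 were tested. Of these, 9 fell and 2 rose, against 6.60% and 5.07% of all genes tested, and the median log2 fold change was -0.0019. Among 20 tested internodal partners 2 fell: Cadm2 (5.57 ± 0.97 CPM in CNP-Cdk7cKO and 10.5 ± 0.69 CPM in Ctrl, log2 fold change -0.91 ± 0.13; adjusted p = 0.00191 by edgeR's quasi-likelihood test), another member of the Cadm family, and the X-linked L1cam, an adhesion molecule of axons and non-myelinating Schwann cells (59.1 ± 10.1 CPM in CNP-Cdk7cKO and 82.0 ± 5.66 CPM in Ctrl, -0.47 ± 0.11). Without CNP-Cdk7cKO 1, L1cam missed the threshold (adjusted p = 0.0515 by edgeR's quasi-likelihood test). Of 11 genes for MAG ligands and signalling, edgeR called 0, while DESeq2 and limma-voom each called 1 lower. At an unadjusted p under 0.05, edgeR gave 1 of them higher and 2 lower, against 1919 and 2015 of all 15056 genes. The kinase gene Fyn, which acts downstream of MAG, averaged 261 ± 4.32 CPM in CNP-Cdk7cKO and 290.1 ± 14.3 CPM in Ctrl and lay at the threshold (edgeR quasi-likelihood adjusted p = 0.0508). It was called lower by edgeR with RLE size factors (adjusted p = 0.0455), with a filter of 1 CPM in 4 libraries (adjusted p = 0.0464) and without Ctrl 2 (adjusted p = 0.0305), and by DESeq2 (adjusted p = 0.0088), and not in the other alternatives. Ngfr, a low-affinity neurotrophin receptor gene, averaged 255 CPM in CNP-Cdk7cKO and 273 CPM in Ctrl.

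At nodes and paranodes 1 of 14 tested partners fell and 1 rose. Ank3, the gene of the nodal scaffold ankyrin-G, averaged 83.7 ± 5.89 CPM in CNP-Cdk7cKO and 102 ± 3.44 CPM in Ctrl (log2 fold change -0.29 ± 0.06; adjusted p = 0.00766 by edgeR's quasi-likelihood test). Ezr, the gene of ezrin, a membrane-to-actin linker of Schwann cell microvilli, rose, at 224 ± 4.77 CPM in CNP-Cdk7cKO and 195 ± 4.54 CPM in Ctrl (0.20 ± 0.04, adjusted p = 0.00851 in the same test). Of 8 adherens junction partners 2 fell, the N-cadherin gene Cdh2 (14.9 to 17.8 CPM in CNP-Cdk7cKO and 21.2 to 22.6 CPM in Ctrl, -0.42 ± 0.07) and the vinculin gene Vcl (117 ± 8.53 CPM in CNP-Cdk7cKO and 138 ± 4.64 CPM in Ctrl, -0.24 ± 0.06). Vcl lost its call without CNP-Cdk7cKO 2, Ctrl 2 or Ctrl 3 (edgeR quasi-likelihood adjusted p = 0.0605, 0.0532 and 0.0621).

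Of 17 tested tight junction partners 3 fell and 1 rose. Among the falls were those of the scaffold genes Magi2 (37.9 ± 3.60 CPM in CNP-Cdk7cKO and 47.4 ± 2.50 CPM in Ctrl) and Mpdz (70.4 ± 8.50 CPM in CNP-Cdk7cKO and 89.4 ± 2.91 CPM in Ctrl), with log2 fold changes of -0.32 and -0.34 and edgeR quasi-likelihood adjusted p-values of 0.0144 and 0.0173. The rise was in Jam2 (28.7 CPM in CNP-Cdk7cKO and 24.4 CPM in Ctrl, 0.23 ± 0.06, adjusted p = 0.0286 in the same test), named after its value was seen; it lost its call without CNP-Cdk7cKO 1, 2 or 4 or Ctrl 1, 2 or 4 (edgeR adjusted p from 0.0523 to 0.0787). The median of this list was 0.07. Among 9 other tested connexins and pannexins 1 fell: Gjc3 measured 917, 855, 969 and 815 CPM in CNP-Cdk7cKO 1 to 4, against 1245, 1204, 1256 and 1334 CPM in Ctrl 1 to 4, with no overlap (log2 fold change -0.50 ± 0.06; adjusted p = 0.000389 by edgeR's quasi-likelihood test). Of the partners named as called, Gjc3 alone still passed with a term for Xist or for muscle markers (edgeR adjusted p = 0.0279 and 0.0245), and it missed the threshold in the female libraries (adjusted p = 0.0674). Cadm2, L1cam, Ank3, Ezr, Cdh2, Vcl, Magi2, Mpdz and Jam2 kept their direction and lost their calls under all 3 of these settings (edgeR adjusted p from 0.0635 to 0.451). Scaled to Schwann transcripts, L1cam, Ank3, Cdh2, Vcl, Magi2 and Mpdz also lost theirs, with Vcl at -0.0072 (edgeR adjusted p from 0.0757 to 0.951). The fall of Gjc3 and the result for Gjb1 are separate tests, and the ratio above is the test of their difference.

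**Figure D4:**
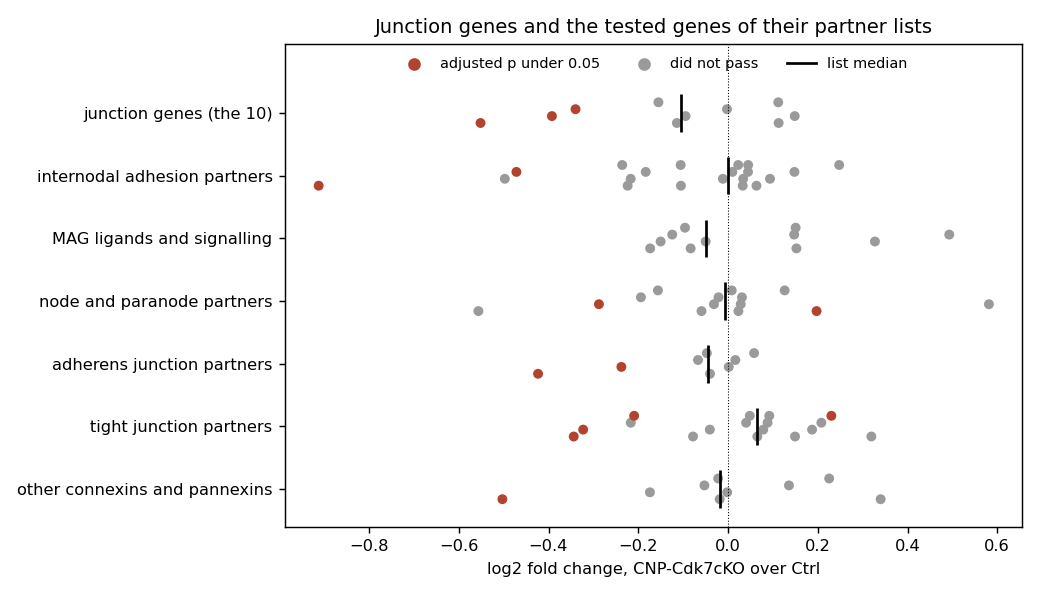
Log2 fold change, CNP-Cdk7cKO over Ctrl (x axis), of each tested gene of the 10 and of the 6 partner lists (rows); red points had an adjusted p under 0.05 and vertical bars are list medians. Called genes are few in every list and most lie left of 0; the medians of the partner lists run from -0.05 to 0.07.

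The 3 falls stood differently when sex, muscle transcripts or Schwann cell RNA was taken into account. Cldn19 passed in every alternative that had 3 or 4 control libraries. With a term for Xist its log2 fold change was -0.45 (edgeR quasi-likelihood adjusted p = 0.00442), and with a term for muscle markers -0.47 (adjusted p = 0.00388). Among females alone it was -0.45 (edgeR adjusted p = 0.0324), but Ctrl 1 is then the lone control, so the spread between controls is not measured but taken from the knockout libraries, as for every value from the female libraries. Cdh1 kept values of -0.32, -0.25 and -0.33 and Cadm1 of -0.55, -0.65 and -0.57 under the same 3 settings, none of which passed (edgeR quasi-likelihood adjusted p from 0.0851 to 0.172). Scaled to the geometric mean of 6 Schwann cell transcripts, a scaling that moved the median of all genes to 0.23, Cldn19 was at -0.16 and Cadm1 at -0.32, both past the threshold (edgeR quasi-likelihood adjusted p = 0.018 and 0.0482). Cdh1 was at -0.11 and missed it (adjusted p = 0.247), and Cadm4 (0.34), Cadm3 (0.34), Gldn (0.38), Nrcam (0.22) and Mag (0.13) were called higher relative to these transcripts. Relative to the median of all genes under that scaling, Nrcam was level, Cadm4, Cadm3 and Gldn were above and Mag, Nfasc and Gjb1 were below, as with the TMM scaling.

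**Figure D5:**
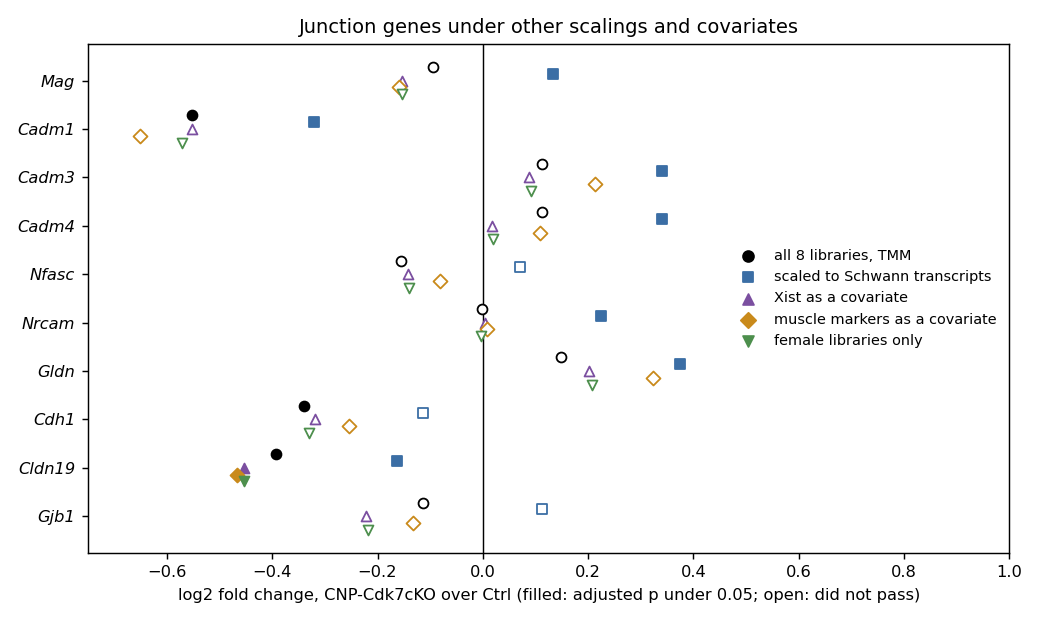
Log2 fold change of each gene, CNP-Cdk7cKO over Ctrl (x axis), in the comparison of all 8 libraries and under 4 other scalings, covariates or samples; filled symbols had an adjusted p under 0.05. Cldn19 is filled throughout, Cdh1 and Cadm1 stay left of 0 with mostly open symbols, and scaling to Schwann transcripts moves every gene to the right.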

How the data were processed

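Libraries of polyadenylated RNA were made with a stranded kit, per the labels' protocols. The authors deposited estimated counts, 1 value per gene and library. STAR, Salmon and GRCm38 are named in the submitters' processing notes, while their versions and settings, and whether counting used strand, were not given in the sources used here. Values that were not whole (8.29%) were rounded before testing. Symbols matched 55141 of 55487 identifiers. Coordinates and exon lengths are from GENCODE (GRCm38) and promoters from RefSeq (GRCm38.p6).

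Low genes were removed by filterByExpr at its minimum count of 10 and total of 15. After TMM scaling, CNP-Cdk7cKO was compared with Ctrl by glmQLFTest (edgeR 4.0.16, R 4.3.3) with no covariate. limma 3.58.1 and DESeq2 1.42.0 served as alternatives. Standard errors are the log2 fold change over the root of F. Ratios used counts plus 0.5. Named genes were the 10 members, Cdk7, Cnp and, per partner list, up to 3 called genes with the smallest p, or the 2 with the highest CPM. Values of some genes of the lists are not reported here. The members, lists, tests and alternatives were chosen with earlier results of these data known. Alternatives covered normalization, filters, tools, the replicate number as a block, Xist and muscle covariates, female libraries and each library left out. The edgeR test was tried on simulated data with known changes. It called 28% of the 1.25-fold changes, 62% of the 1.5-fold and 94% of the 2-fold ones, so small changes were often missed. The genes changed there were drawn at random and not matched to the members in level.

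Replicate pairs differed more than counting alone gives (chi-square per degree of freedom 3.86 to 17.6).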

Additional observations from a re-analysis of the deposited data

Results flagged for a closer look

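Among 76 groups of 4 libraries, 2 held a library far from the other 3, where chance flags about 1 in 20 groups. Mpdz in CNP-Cdk7cKO was low in CNP-Cdk7cKO 4 (57.8 CPM, against 73.1 to 75.6 CPM in the other 3), a gap of 0.857 of the group's range. The summed compact myelin and periaxin genes in Ctrl were high in Ctrl 1, the female control (145452 CPM, against 129463 to 131963 CPM in the male controls), a gap of 0.844 of the range.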

How the results depend on the processing

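With each library left out in turn, 3 members fell and 0 rose in every case, while all genes called higher numbered 470 to 655 and lower 653 to 860, and partner genes called higher numbered 1 to 2 and lower 8 to 11. Over 1.5 times fewer genes were called without Ctrl 2 (470 higher and 653 lower), and higher without Ctrl 3 (500). With all libraries and TMM they were 763 higher and 994 lower. They were 5849 and 378 when scaled to Schwann transcripts, 76 and 167 with Xist as a covariate, 121 and 180 with a term for muscle markers, and 37 and 77 in female libraries alone. Under these 4 settings in turn, 5, 0, 0 and 0 members were called higher and 2, 1, 1 and 1 lower. Partner genes called higher were 32, 0 and 0, and lower 2, 1 and 1, under the first 3 of these settings. At an unadjusted p under 0.05 with the Schwann scaling, edgeR gave 42 of 79 partners higher and 3 lower. The same threshold gave 7210 of all 15056 genes higher and 499 lower. With Xist the partners were 5 and 14, against 1168 and 1165 of all genes. With the muscle markers they were 4 and 11, against 1031 and 1124. Signs changed under the Schwann scaling for Mag (0.13), Nfasc (0.071), Nrcam (0.22), Gjb1 (0.11), Fyn (0.077) and Ngfr (0.13), by its construction. Otherwise Nrcam also changed sign, at 0.0058 by limma-voom, 0.0037 with Xist, 0.0087 with the muscle markers, and between -0.017 and 0.014 with a library left out. With the replicate number as a block, 3 members fell and 682 genes were called higher and 926 lower; the block changed no call among the members, and of the partners named Jam2 lost its call (adjusted p = 0.0613). Same-numbered libraries had correlations of deviations of 0.0438, 0.0759, 0.127 and 0.0089, so the numbers were not taken to pair the samples, and 0 ratios passed by sign flips within numbers, whose smallest exact p is 0.125. Under the remaining normalizations, filters and tools, 3 or 4 members were called lower, 0 higher, and 9 to 11 partners lower. The cause of the lost calls was not tested. Counts in a library were 695 or more for the members and as few as 86 for the partner Cadm2, and 4 libraries a group limit the precision.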
